A study of Sus scrofa with 24 samples.

Results

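The insulin receptor pathway genes described here are INSR, IRS1, IRS2, PIK3R1, AKT1, AKT2, FOXO1, GSK3B, MTOR and PID1, followed in pig subcutaneous fat. They were chosen by name, and a probe was taken where the array file or a RefSeq gene table gave it 1 of these 10 names. Of the 10 genes, 9 had a probe, and AKT2 was not analysed here. These 9, of 5649 genes named on the array, had 18 of its 43603 probes, and all 18 were among the 28606 probes bright enough to be tested. The gene name or RefSeq accession named 10 of the 18 probes, a gene identifier named 1 and the full gene name in the file's description named 7.

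The study took subcutaneous adipose tissue from 24 pigs at 115 kg body weight, 8 per group with 1 one-colour (Cy3) Agilent array per pig. RFIneg pigs came from a line with low residual feed intake and ate freely. RFIplR pigs came from the line with high residual feed intake and were held to the intake of the low line. RFIpl pigs came from that same high line and ate freely. Residual feed intake is the gap between the feed a pig eats and the amount foreseen from its growth and upkeep. RFIneg against RFIpl therefore compares the lines at free intake, RFIplR against RFIpl compares feeding levels within the high line, and RFIneg against RFIplR compares the lines at a similar feeding level. Whole tissue was measured, so fewer cells of a type and less RNA per cell cannot be told apart.

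Insulin binds its receptor, a tyrosine kinase, which phosphorylates docking proteins of the IRS family. These recruit phosphoinositide 3-kinase, whose lipid product brings the kinase AKT to the membrane. AKT then holds back FOXO transcription factors and the kinase GSK3 and feeds into the mTOR complexes, and in fat cells this route drives glucose uptake and lipid storage and restrains lipid breakdown.

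Levels are given as log2 of the spot signal minus the array's 75th percentile, so 0 is that percentile, and levels of different probes are not set against each other. Array brightness came in 2 classes, 17 bright arrays with 75th percentiles of 414 to 663 signal units and 7 dim ones with 69.4 to 94.4. The dim arrays were 2 of RFIneg, 3 of RFIplR and 2 of RFIpl, and all were scanned on the same day. Correlations over the 28606 tested probes were 0.936 to 0.991 between bright arrays, but 0.769 to 0.825 between a bright and a dim one. Every comparison is therefore given from a fit of group means alone, which is the main one, and from a fit with brightness class as a block. All 8 fat cell markers examined, among them ADIPOQ and LIPE, were well above background on all 24 arrays. The array of RFIpl 2 carried skeletal muscle transcripts, with a log2 summed level of 10.3 for 8 muscle markers against 5.41 or less on the other 23 arrays. The arrays of RFIpl 7 and 8 had SFN and DSP, markers of keratinocytes, at log2 summed levels of 5.86 and 4.39, against 0.18 or less elsewhere, and the 3 keratins of that list were not analysed here.

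The probes behind the results below are 60 bases long, and those of AKT1, IRS1 and PID1 and 3 of the 4 named FOXO1 are printed as the array files list them, 5′ to 3′, since the probes of one gene did not always give the same answer. Capitals mark the first stop triplet (TAA, TAG or TGA) in each of the 3 reading frames of the printed strand, so that a frame without capitals runs open through the probe.
AKT1 A_72_P440966: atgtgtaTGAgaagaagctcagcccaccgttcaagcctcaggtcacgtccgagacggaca
IRS1 A_72_P371473: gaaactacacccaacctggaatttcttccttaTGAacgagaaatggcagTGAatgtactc
IRS1 A_72_P537138: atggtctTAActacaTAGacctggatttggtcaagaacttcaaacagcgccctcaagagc
IRS1 A_72_P443378: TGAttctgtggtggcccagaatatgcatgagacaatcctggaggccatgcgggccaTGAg
FOXO1 A_72_P441344: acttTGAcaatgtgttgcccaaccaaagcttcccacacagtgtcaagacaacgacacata
FOXO1 A_72_P280234: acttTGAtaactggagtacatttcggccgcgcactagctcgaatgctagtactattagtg
FOXO1 A_72_P514181: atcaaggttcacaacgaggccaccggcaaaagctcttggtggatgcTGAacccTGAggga
PID1 A_72_P201602: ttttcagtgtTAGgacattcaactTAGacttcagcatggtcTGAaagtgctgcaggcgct

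Of the 18 probes, 16 had at least 1 open frame on the listed strand and 15 on the reverse complement. Over all 43603 probes the shares were 78.9% and 78.0%, so an open frame does not settle which strand a probe reads. The PID1 probe and the brightest MTOR probe, A_72_P063361, had none on the listed strand, but each had 1 on the reverse complement. Over all 43603 probes, 15.2% were open only on the reverse complement. Which strand the PID1 probe and this MTOR probe read was not settled. The PID1 values below are those of the probe and were not shown to be levels of PID1 RNA.

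With group means alone, no member probe passed an adjusted p of 0.05 (limma, Benjamini-Hochberg over 28606 probes) in any of the 3 comparisons. This fit called 0.206% of all probes in RFIneg against RFIpl (0.147% higher, 0.0594% lower), 0.297% in RFIplR against RFIpl (0.182% higher, 0.115% lower) and 0% in RFIneg against RFIplR, where 605 had an unadjusted p under 0.05. These shares rest on 59 and 85 called probes and moved with single arrays. In RFIneg against RFIpl 1 probe was called when RFIpl 8 was left out and 284 when RFIpl 3 was, and in RFIplR against RFIpl the count was 22 with RFIpl 1 left out and 296 with RFIpl 3 left out. The PID1 probe and 1 INSR probe had been kept through RFIpl alone, the group in which their median was highest, and the member counts that follow are over the other 16 probes. At an unadjusted p under 0.05 stood 1 of 16 in RFIneg against RFIpl, where 6.86% of all probes did, 2 in RFIplR against RFIpl, where 8.18% did, and 1 in RFIneg against RFIplR, where 2.11% did. With brightness as a block, AKT1 was lower in RFIneg than in RFIpl, and AKT1 and IRS1 were lower in RFIplR than in RFIpl. That is 1 of 16 probes in RFIneg against RFIpl, where 6.62% of all probes were called (4.32% higher, 2.3% lower), and 2 of 16 in RFIplR against RFIpl, where 10.4% were called (5.85% higher, 4.51% lower). With 1 array left out, the block fit called between 1023 (without RFIpl 4) and 3399 probes (without RFIpl 3) in RFIneg against RFIpl, against 1895 with all arrays. No member passed in RFIneg against RFIplR, where the block fit called 0% of all probes and 2714 at an unadjusted p under 0.05. In bright arrays alone 0 member probes passed in RFIneg against RFIpl, where 1.04% of all probes were called (0.745% higher, 0.294% lower), and 1 passed, AKT1, in RFIplR against RFIpl, where 3.33% were called (2.33% higher, 1% lower). Asked as any difference among the 3 groups (moderated F), 0 members passed with group means alone, where 0.28% of all probes did, and AKT1 and IRS1 passed with the block, where 9.03% did. INSR, IRS2, PIK3R1, FOXO1, GSK3B and MTOR passed in none of the comparisons in either fit.

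**Figure D1:**
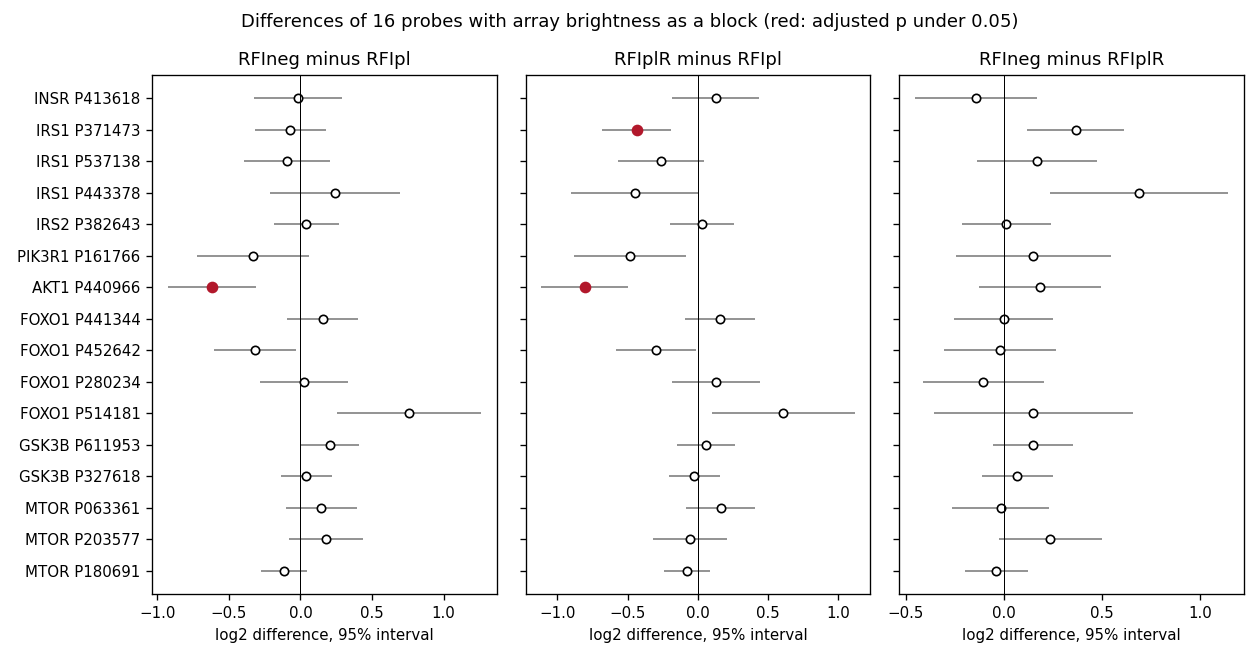
Differences of the 16 member probes that passed the background filter in more than 1 group, in log2 units with brightness as a block, 1 panel per comparison and 1 row per probe, labelled by gene and the end of the probe name. Points are the fitted differences, bars their 95% intervals, and filled red points passed an adjusted p of 0.05, which were AKT1 in RFIneg minus RFIpl and IRS1 and AKT1 in RFIplR minus RFIpl.

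At the receptor, INSR was measured by 2 probes. The brighter one ran from -1.03 to 0.67 in RFIneg with a median of -0.51, from -0.89 to 0.79 in RFIplR with a median of -0.25, and from -1.14 to 0.55 in RFIpl with a median of -0.57. The groups overlapped over nearly their whole range, and the highest arrays of each group were dim ones. The block fit gave a difference of -0.02 in RFIneg minus RFIpl (95% interval -0.32 to 0.29) and 0.13 in RFIplR minus RFIpl (-0.18 to 0.44). The dimmer INSR probe was well above background on 4 RFIneg, 4 RFIplR and 7 RFIpl arrays, so it was kept through RFIpl alone and no test of it is used. Its levels of -4.22 to -2.55 in RFIneg, -3.98 to -1.97 in RFIplR and -5.28 to -2.28 in RFIpl overlapped.

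IRS1, the docking protein through which the fat cell receptor mainly reaches phosphoinositide 3-kinase, had 3 probes. The brightest, named through its gene identifier, had levels of 1.81 to 2.64 in RFIneg (median 2.23), 1.40 to 2.17 in RFIplR (median 1.86) and 2.12 to 2.62 in RFIpl (median 2.20). All 8 RFIplR arrays lay below the RFIpl mean of 2.30, although 2 of them, RFIplR 1 and 8, reached into the RFIpl range. In the block fit IRS1 was lower in RFIplR than in RFIpl by a log2 difference of -0.44 (SE 0.12, adjusted p = 0.0236). With group means alone the difference was -0.46 and did not pass (adjusted p = 0.221), and in bright arrays alone it was -0.45 (adjusted p = 0.106). Left out, RFIplR 5 took the call away (difference -0.40, adjusted p = 0.0532), as did the replicate number as a further block (-0.43, adjusted p = 0.061). RFIneg did not differ from RFIpl at this probe beyond its error (-0.07, 95% interval -0.32 to 0.18).

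The other IRS1 probes had the same sign in RFIplR minus RFIpl with brightness as a block but did not pass, at -0.26 (adjusted p = 0.269) and -0.45 (adjusted p = 0.203). The mean of the 3 probes differed by -0.38 and just missed the threshold (adjusted p = 0.0507). In RFIneg minus RFIplR the 3 probes stood at 0.37, 0.17 and 0.69, none of them past the threshold. Over the 17 bright arrays the brightest probe correlated with the others at 0.729 and 0.44. IRS2, the second widespread docking protein, had 1 probe, with differences of 0.04 in RFIneg minus RFIpl (95% interval -0.18 to 0.27) and 0.03 in RFIplR minus RFIpl (-0.20 to 0.26).

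PIK3R1 encodes the p85α regulatory subunit that couples the kinase to IRS proteins. Its level was 0.23 to 1.77 on bright arrays and 3.17 to 4.27 on dim ones, so the array class moved it far more than any group. Within bright arrays it was 0.49 to 1.67 in RFIneg, 0.41 to 0.65 in RFIplR and 0.23 to 1.77 in RFIpl. The RFIplR arrays lay closely together inside the RFIpl range. With brightness as a block the difference was -0.33 in RFIneg minus RFIpl (adjusted p = 0.306) and -0.48 in RFIplR minus RFIpl (adjusted p = 0.11), and the RFIplR difference passed in 1 of 35 further settings, without RFIpl 2 (-0.60, adjusted p = 0.034).

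AKT1, the kinase that relays the lipid signal, gave the clearest difference among the members. Its level ran from 0.55 to 1.45 in RFIneg (median 0.87), from 0.38 to 1.17 in RFIplR (median 0.90) and from 0.83 to 2.09 in RFIpl (median 1.74). All 8 RFIneg and all 8 RFIplR arrays lay below the RFIpl mean of 1.59. The RFIpl arrays split, with RFIpl 2 at 0.87 and RFIpl 3 at 0.83 inside the range of both other groups and the other 6 at 1.57 or more, above every array of them. On dim arrays alone AKT1 was 1.14 and 1.45 in RFIneg, 1.06 to 1.17 in RFIplR and 1.94 and 2.09 in RFIpl, so RFIneg and RFIplR overlapped each other and neither overlapped RFIpl. With so few dim arrays the same separation was seen in both comparisons at the PIK3R1 probe and at a pair of FOXO1 probes. The share of all probes that separate in this way was not computed, so it is no mark of AKT1.

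With brightness as a block AKT1 was lower in RFIneg than in RFIpl by a log2 difference of -0.62 (SE 0.15, adjusted p = 0.0168), and in RFIplR than in RFIpl by -0.80 (SE 0.15, adjusted p = 0.00225). The call in RFIneg minus RFIpl was lost with slide as a further block (-0.55, adjusted p = 0.0829) and with normexp background correction (-0.57, adjusted p = 0.0574), and the call in RFIplR minus RFIpl was kept under both. RFIneg and RFIplR differed by 0.18 (95% interval -0.12 to 0.49). Both comparisons use the same RFIpl arrays. With group means alone the differences were -0.62 (adjusted p = 0.297) and -0.74 (adjusted p = 0.11). In bright arrays alone they were -0.59 (adjusted p = 0.122) and -0.77 (adjusted p = 0.0484), and within the 11 arrays of scan day 1 they were -0.59 (adjusted p = 0.552) and -0.90 (adjusted p = 0.16).

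RFIpl 2, 1 of the low AKT1 arrays of its group, was the array with muscle transcripts. Without it the block fit gave AKT1 differences of -0.71 in RFIneg minus RFIpl (adjusted p = 0.00713) and -0.89 in RFIplR minus RFIpl (adjusted p = 0.000745). The log2 summed level of the 8 fat cell markers on bright arrays was 10.07 to 10.46 in RFIneg, 10.10 to 10.34 in RFIplR and 9.68 to 10.39 in RFIpl, and RFIpl overlapped both other groups. On dim arrays it was 9.94 and 10.02 in RFIneg, 9.74 to 9.99 in RFIplR and 9.57 and 9.62 in RFIpl. RFIpl did not overlap the others on these few arrays, but the share of all probes that separate in this way was not computed. The log2 summed level of the 3 endothelial markers, all above background on all 24 arrays, was 5.84 to 6.31 in RFIneg, 5.76 to 6.51 in RFIplR and 5.39 to 6.05 in RFIpl on bright arrays, and 5.87 and 6.10 in RFIneg, 5.75 to 5.99 in RFIplR and 5.19 and 5.65 in RFIpl on dim ones. RFIpl 3 at 6.05 and RFIpl 2 at 5.88, the arrays low in AKT1, had the highest endothelial levels of their group. That of 2 macrophage markers was 1.60 to 3.30 in RFIneg (median 2.44), 1.38 to 3.39 in RFIplR (median 1.95) and 2.34 to 3.52 in RFIpl (median 2.81) on bright arrays, and 1.46 and 2.45 in RFIneg, at most 1.66 in RFIplR and 1.56 and 1.87 in RFIpl on dim ones. The other sets did not follow the 2 low AKT1 arrays in the same way. For fat cell markers RFIpl 3 was at 10.39, but RFIpl 2 at 9.93 was below RFIpl 8 at 10.07. For macrophage markers RFIpl 3 was at 2.69 and RFIpl 2 at 3.11, both below RFIpl 4 at 3.52. RFIpl 7 and 8, the arrays with SFN and DSP, were not among the low AKT1 arrays. The part of the muscle, keratinocyte, fat cell, endothelial and macrophage transcripts in the AKT1 difference was not tested.

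**Figure D2:**
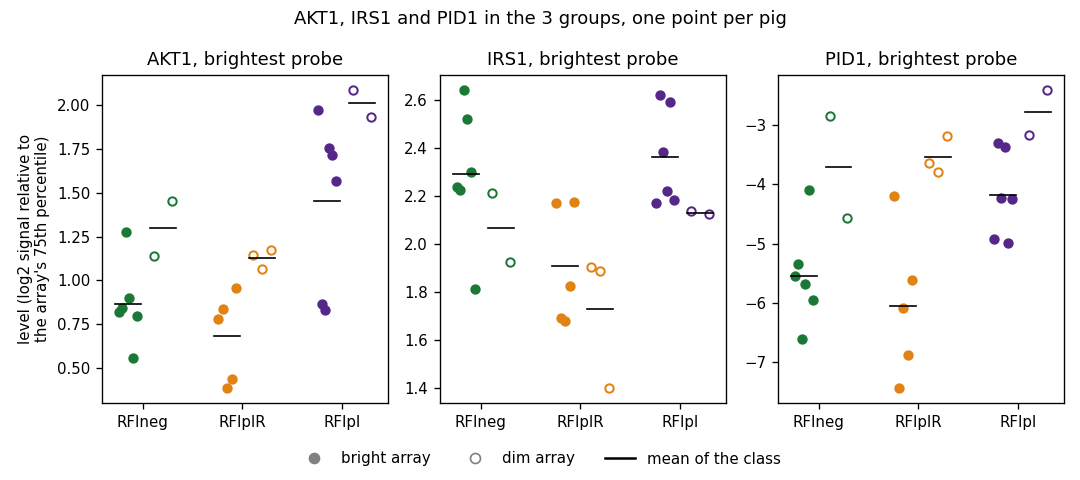
Levels of AKT1 and IRS1 at their brightest probe and of the probe named PID1, whose strand was not settled. Units are log2 signal relative to the array's 75th percentile, 1 point per pig (8 per group). Filled points are bright arrays, open points dim arrays, and short lines the mean of each class; the RFIpl points of AKT1 split into 6 at 1.57 or more and 2 below 0.9.

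Downstream of AKT, FOXO1, the transcription factor that AKT keeps out of the nucleus, was named on 4 probes, which did not move together. The brightest ran from 2.18 to 3.97 in RFIneg (median 3.28), 1.85 to 3.76 in RFIplR (median 3.40) and 2.19 to 3.45 in RFIpl (median 3.24), and the dim arrays of each group were the low ones. In the block fit the 4 probes differed in RFIneg minus RFIpl by 0.16, -0.32, 0.02 and 0.76, and none passed. In RFIplR minus RFIpl they differed by 0.16, -0.30, 0.13 and 0.61, again with none past the threshold.

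Of the probes named FOXO1, A_72_P514181 had the largest differences, and it was named from the description alone. On bright arrays it ran from -3.42 to -2.38 in RFIneg, from -3.38 to -2.74 in RFIplR and from -4.89 to -2.34 in RFIpl, so the RFIpl arrays spanned both other groups. Its adjusted p in RFIneg minus RFIpl was 0.0622 with brightness as a block. It passed there under median scaling (0.80, adjusted p = 0.0397), under quantile scaling (0.81, adjusted p = 0.0369) and under the filter that asks for all arrays of a group (0.76, adjusted p = 0.0484). Without RFIpl 3, the highest bright RFIpl array at this probe, it passed in RFIneg minus RFIpl (0.94, adjusted p = 0.00486) and in RFIplR minus RFIpl (0.79, adjusted p = 0.015). With slide as a further block it passed in RFIplR minus RFIpl (0.67, adjusted p = 0.0387). Over the 17 bright arrays its Pearson correlation was 0.726 with the probe of FOXO4, a related factor. With the other probes named FOXO1 it was 0.0186 to 0.654. The Spearman values were 0.463 with FOXO4 and 0.049 to 0.728 with those probes. The probe sequence was not compared with FOXO transcripts, so which of the FOXO genes it reads was not settled. Its values were not shown to be levels of FOXO1 RNA.

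**Figure D3:**
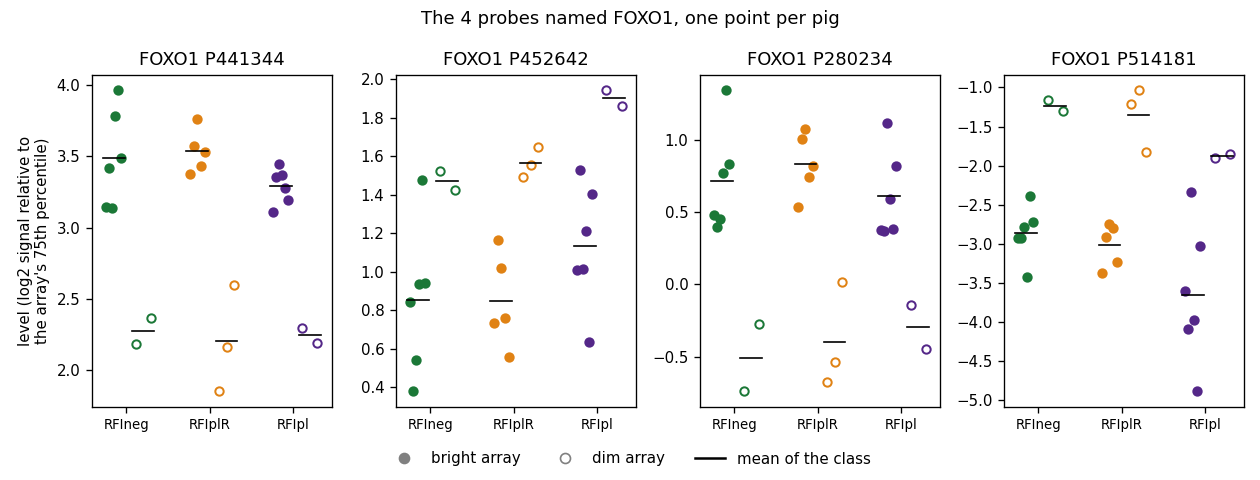
Levels of the 4 probes named FOXO1, in log2 signal relative to the array's 75th percentile, 1 point per pig (8 per group), with filled points for bright arrays, open points for dim arrays and lines for class means. Dim arrays lay below bright ones at A_72_P441344 and A_72_P280234 and above them at the other probes' class means.

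GSK3B, the kinase that restrains glycogen synthesis until AKT inactivates it, had 2 probes. At the brighter one levels were 1.16 to 1.67 in RFIneg, 0.89 to 1.55 in RFIplR and 0.85 to 1.55 in RFIpl, with wide overlap. The difference in RFIneg minus RFIpl was 0.21 (95% interval 0.01 to 0.41) and did not pass after adjustment (adjusted p = 0.204), and the second probe stood at 0.04. MTOR, the kinase of the growth complexes, had 3 probes, whose differences with brightness as a block lay between -0.12 and 0.18 in RFIneg minus RFIpl and between -0.08 and 0.16 in RFIplR minus RFIpl. None of the MTOR intervals in these 2 comparisons left out 0. Which strand the brightest MTOR probe reads was not settled.

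PID1 encodes an adaptor protein that has been linked to weaker insulin-stimulated glucose uptake in fat cells. Its probe was close to background, well above it on 2 RFIneg, 1 RFIplR and 6 RFIpl arrays, so it was kept through the RFIpl group alone and its values are a description. Levels ran from -6.62 to -2.85 in RFIneg (median -5.45), from -7.44 to -3.18 in RFIplR (median -4.91) and from -4.99 to -2.40 in RFIpl (median -3.80). On bright arrays they ran from -6.62 to -4.10 in RFIneg, from -7.44 to -4.20 in RFIplR and from -4.99 to -3.30 in RFIpl, and the groups overlapped. Since only RFIpl passed the background filter, no difference, p or call is drawn from this probe, and the sign of RFIplR minus RFIpl turned with the background correction.

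The members did not vary together across animals in a way that passed correction. Over the 17 bright arrays 36 pairs were examined, and none had an adjusted permutation p under 0.05 (100000 permutations, two-sided). INSR and IRS1 had the strongest Pearson correlation (r = -0.675, permutation p = 0.00322, adjusted p = 0.0928), with a Spearman rho of -0.5 (permutation p = 0.043, adjusted p = 0.283). It was -0.515 without the 2 arrays farthest from the INSR median and -0.784 on the 11 arrays of scan day 1. AKT1 and FOXO1 followed (r = -0.624, permutation p = 0.00773, adjusted p = 0.0928; rho = -0.571, permutation p = 0.0189, adjusted p = 0.226), with -0.591 without the 2 farthest arrays and -0.683 on scan day 1. As a description over the same arrays and 4449 other named genes, the genes most like AKT1 were TIMM8A (r = 0.919), FGFR1 (r = 0.887) and IGF1 (r = 0.882). Those most like INSR were BICD1 (r = 0.903), GATAD2B (r = 0.874) and CAST (r = 0.859).

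Further genes of the pathway were taken from a list of 92 sorted by role, of which 51 had a probe and all 51 were tested. With group means alone none passed in any comparison. With brightness as a block 2 were higher in RFIneg than in RFIpl and 3 were higher and 1 lower in RFIplR than in RFIpl, with none past the threshold in RFIneg against RFIplR. Over 4450 named genes, 5.64% were higher and 1.84% lower in RFIneg against RFIpl, and 7.75% higher and 4.36% lower in RFIplR against RFIpl, so neither count of the 51 stood above the share over named genes. The list's median difference was 0.04 in RFIneg minus RFIpl and 0.02 in RFIplR minus RFIpl, against 0.03 and 0.01 over the 4450 named genes at their main probe. None of the 9 receptor and docking genes, 6 receptor brakes, 4 genes of phosphoinositide 3-kinase and its lipid, 4 of AKT and its phosphatases or the 1 gene of the RAS-MAPK arm passed. Of the receptor and docking genes, the smallest p without a block belonged in RFIneg minus RFIpl to GRB10, an adaptor that damps the receptor (-0.53 with the block, adjusted p = 0.081), and in RFIplR minus RFIpl to DOK1, a docking protein (-0.37, adjusted p = 0.0622).

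In the block fit of RFIneg against RFIpl, 1 of 8 AKT targets and 1 of 8 FOXO target genes passed. In the block fit of RFIplR against RFIpl, 1 of 8 AKT targets, 1 of 11 genes of the mTOR complexes and effectors and 2 of 8 FOXO target genes did. With so few genes per role and the shares over named genes given above, no theme is drawn from the roles, and none was tested as a set. FOXO4, a factor that AKT restrains as it does FOXO1, ran on bright arrays from -3.56 to -2.79 in RFIneg, from -3.77 to -3.23 in RFIplR and from -4.75 to -3.52 in RFIpl, and both other groups overlapped RFIpl only at its upper end. With brightness as a block FOXO4 was higher by 0.90 in RFIneg (adjusted p = 0.00329) and by 0.71 in RFIplR (adjusted p = 0.00665) than in RFIpl. With group means alone it passed in neither comparison. Under normexp background correction neither FOXO4 call held, at 0.31 in RFIneg minus RFIpl (adjusted p = 0.705) and 0.63 in RFIplR minus RFIpl (adjusted p = 0.12), and in bright arrays alone RFIplR minus RFIpl was 0.61 (adjusted p = 0.0943). KLF15, a fasting-responsive transcription factor, was 3.58 to 4.16 in RFIneg, 3.20 to 4.13 in RFIplR and 2.42 to 4.03 in RFIpl on bright arrays. With brightness as a block KLF15 was higher by 0.95 in RFIneg (adjusted p = 0.00665) and by 0.78 in RFIplR (adjusted p = 0.0139) than in RFIpl. With group means alone it passed in neither comparison. KLF15 missed in RFIneg minus RFIpl with slide as a further block (0.95, adjusted p = 0.0521), and in RFIplR minus RFIpl under normexp (0.55, adjusted p = 0.177) and in bright arrays alone (0.91, adjusted p = 0.0511). The highest bright RFIpl array lay within the range of both other groups, while the RFIpl median of 2.64 lay below every bright array of them.

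FBXO32, a ubiquitin ligase induced by FOXO factors in muscle, was 2.38 to 3.30 in RFIplR and -0.29 to 2.29 in RFIpl on bright arrays. On dim arrays it was 1.86 to 2.57 against 0.13 and 0.50. With brightness as a block FBXO32 was higher in RFIplR than in RFIpl by 1.67 (SE 0.35, adjusted p = 0.00542). With group means alone the difference was 1.62, short of the threshold (adjusted p = 0.0544), as in bright arrays alone (1.66, adjusted p = 0.0583). RFIneg spanned both groups, at 0.67 to 3.48 on bright arrays, and RFIneg minus RFIpl was 0.92 (adjusted p = 0.116). EIF4E, the cap-binding factor that mTOR signalling frees for translation, was lower in RFIplR than in RFIpl by -0.40 with brightness as a block. Its adjusted p was 0.049997, and it passed in 10 of 34 further settings of that fit but not with group means alone.

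**Figure D4:**
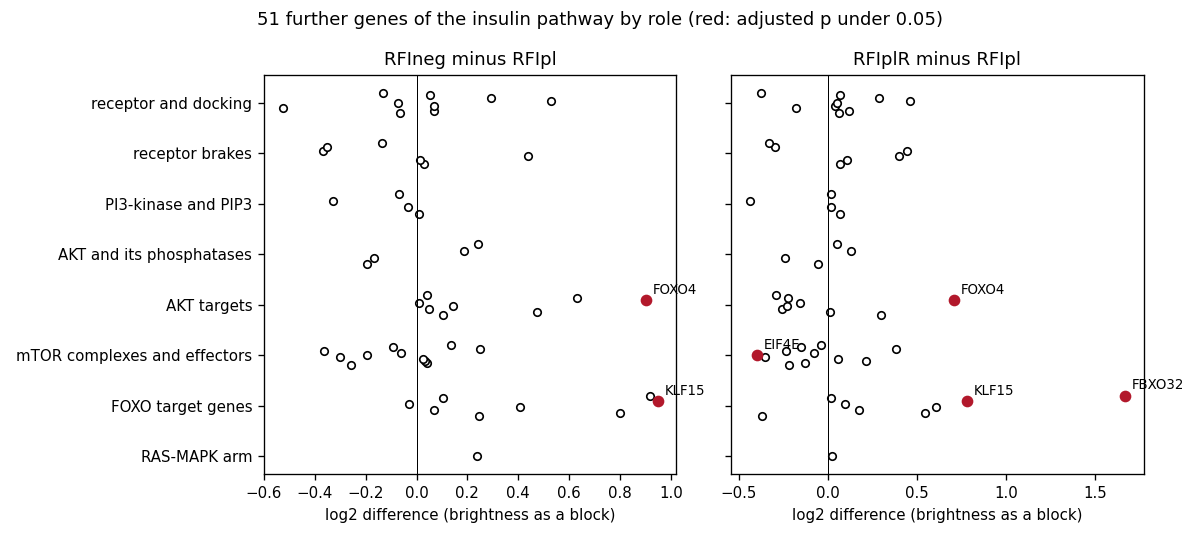
Differences in log2 units with brightness as a block for 51 further insulin pathway genes, 1 point per gene in rows by role, in RFIneg minus RFIpl (left) and RFIplR minus RFIpl (right). Filled red points with names passed an adjusted p of 0.05. They lie in the rows of AKT targets, mTOR effectors and FOXO target genes, and no row was tested as a set.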

How the data were processed

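The authors deposited scanner files with the spot intensity of 24 one-colour arrays, which Feature Extraction 10.7.3.1 had background-subtracted and detrended, without scaling arrays to each other, per the file headers. A deposited table of 24675 rows holds log2 values. Comparison with the scanner files showed each of its columns to be the log2 processed intensity with its median near 0 (at most 0.00101 away). The submitters' processing notes name R 2.10.0. Spot flags for background, uniformity and saturation come from the same software, per the file headers.

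Processed intensity was floored at 1, taken to log2 and set against each array's 75th percentile. Control spots and spots marked non-uniform were dropped, and repeated spots were averaged per probe. Kept probes were well above background on at least 6 arrays of a group and missing on at most 6. Brightness classes were split at the widest gap between the arrays' 75th percentiles on the log2 scale. Symbols came from the files and from a RefSeq gene table, used for names only. A gene's main probe is its brightest, and all probes of the members are given. From the wider list, called genes and the gene of smallest p per role could be named. One probe sequence and one gene of that list are not reported here.

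One limma 3.58.1 fit (R 4.3.3, lmFit and eBayes) over 24 arrays gave the 3 comparisons, two-sided, with Benjamini-Hochberg adjustment over 28606 probes and a threshold of 0.05. It was checked on simulated data. Alternatives changed the blocks, samples, background correction (normexp, offset 50), scaling, filter, values and variance. The members and lists were chosen with earlier results of these data known, and the further settings of the brightness fit were added after seeing the data. Python 3.11.15 with numpy 2.4.6, pandas 2.3.3, matplotlib 3.10.9 and Biopython 1.88, and the R package data.table (1.17.8), were used. Precision is limited by how many arrays there are. The labels give separate pigs. Deviations from group means of same-numbered arrays of different groups correlated at -0.819 to 0.879, values that still hold the brightness classes and so cannot show pairing. With the mean of each brightness class within a group removed, the 24 pairs ran from -0.281 to 0.304. The main fit does not pair arrays by number.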

Additional observations from a re-analysis of the deposited data

How the results depend on the processing

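Counts of called probes rested on how array brightness was treated. With group means alone 0 member probes and 0 list genes passed in each comparison. The PID1 probe is left out of the member calls that follow. In RFIneg against RFIpl AKT1 alone passed with the brightness block, with brightness and scan day as blocks, and with the brightness block and RFIpl 2 left out. These 3 settings called 1895, 1420 and 1472 of all 28606 probes there. In RFIplR against RFIpl they called 2963, 2925 and 3105, and AKT1 and IRS1 passed under each, joined by PIK3R1 without RFIpl 2. AKT1 alone passed there with scan day as a block (258 of all probes) and in bright arrays only (954 of all probes). List genes numbered 2, 2 and 2 in RFIneg against RFIpl and 4, 5 and 8 in RFIplR against RFIpl under the same 3 settings. They numbered 2 in bright arrays in RFIneg against RFIpl, where 297 of all probes were called. In RFIplR against RFIpl without the brightness block they numbered 1 with scan day as a block and with quantile scaling (113 of all probes). The filter asking for all arrays of a group gave 1 as well (141 of 21987 probes). Leaving out 1 array at a time without a block called 22 to 296 of all probes in RFIplR against RFIpl. There 1 member passed only without RFIpl 3, and 1 list gene only without RFIneg 6, RFIpl 2, RFIpl 3 or RFIplR 6. The replicate block gave 0 member probes and 0 list genes in all 3 comparisons, and 0, 2 and 0 of all probes.

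The brightness block alone called AKT1 and 2 list genes in RFIneg against RFIpl, among 1895 of all probes. No member passed there with normexp (372 of all probes) or slide as a further block (416). With median scaling (1993), quantile scaling (1659) and the stricter filter (2068 of 21987), A_72_P514181, named FOXO1, passed beside AKT1. The list count was 1 with normexp, the stricter filter and slide. In RFIplR against RFIpl, with the PID1 probe again left out, the brightness block alone called AKT1 and IRS1, among 2963 of all probes. Both passed again with normexp (766 called), quantile scaling (2611), the stricter filter (2879 of 21987) and the deposited values (2784 of 24582). AKT1 alone passed with the replicate block (1848), and A_72_P514181 passed beside AKT1 and IRS1 with slide (1694). With 1 array left out (2000 to 3671 of all probes), AKT1 passed each time and IRS1 each time except without RFIplR 5. PIK3R1 joined them without RFIpl 2, and A_72_P514181 without RFIpl 3. The list count was 1 with normexp, against 4 with the brightness block alone. In RFIneg against RFIpl with 1 array left out (1023 to 3399 of all probes), AKT1 passed each time, joined by A_72_P514181 without RFIpl 3. List counts with 1 array left out were 2 to 6 in RFIneg against RFIpl and 3 to 9 in RFIplR against RFIpl. They were highest without RFIpl 3 (6 and 9). The AKT1 difference passed in 33 of 35 further settings in RFIneg minus RFIpl, missing with normexp and slide. In RFIplR minus RFIpl it passed in 35 of 35. IRS1 passed in 32 of 35 in RFIplR minus RFIpl, missing without RFIplR 5, with the replicate block and as the mean of its probes. Normexp turned the PID1 probe, not used as a test, to 0.14 there, against -1.52. Normexp moved the median of all probes to 0.21 in RFIplR minus RFIpl with group means alone. The causes of these changes were not tested.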
